A study of Mus musculus with 10 samples.

Results

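Neurotrophins are secreted growth factors that act on neurons through 2 kinds of receptor, and the 6 genes described here were taken by symbol as 2 ligands, 3 receptors and 1 sorting receptor of this system. All 6 were among the 32531 gene rows of the deposited count files. Bdnf encodes brain-derived neurotrophic factor and Ntf3 encodes neurotrophin-3. Ntrk2 and Ntrk3 encode the receptor tyrosine kinases TrkB and TrkC, which bind chiefly BDNF and neurotrophin-3. Ngfr encodes p75NTR, which binds all neurotrophins and their uncleaved precursors, and Sort1 encodes sortilin, which sorts pro-BDNF inside cells and acts as a co-receptor of p75NTR. In the striatum most BDNF protein is known to come from cortical neurons, which carry it along their axons and release it onto medium spiny neurons, while the medium spiny neurons carry TrkB.

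The study was a short-access experiment of intravenous cocaine self-administration in adult mice. Libraries came from Drd1-TRAP (CP73) mice, which express an EGFP-tagged ribosomal protein L10a from Drd1 regulatory sequences and were bred from an FVB/N-Swiss Webster background into C57BL/6 for at least 9 generations. Tagged polysomes were pulled down from the whole striatum with antibodies against EGFP, so the RNA is that bound to ribosomes of cells expressing the D1 dopamine receptor, chiefly direct-pathway medium spiny neurons. There were 3 pull-downs each from mice with saline self-administration, mice with cocaine self-administration and yoked controls, and 1 input library of total striatal RNA, and the labels give every library, the input included, the same transgene. What yoked mice were given, whether animals were pooled and whether libraries of a group came from separate mice is not stated in the labels, so p-values measure only the spread between these libraries. Libraries are called by group and number, for example yoked 3.

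Each pull-down held between 12528806 and 45242175 gene counts, and the input held 40519976. Levels are given as CPM, counts per 1000000 gene counts of a library, and the detection floor was set at 3 counts, which is 0.0663 to 0.239 CPM depending on the pull-down. Drd1 averaged 691 ± 106 CPM over the pull-downs (SD, n = 9) and was at 331 CPM in input RNA, whereas the 6 markers of D2 medium spiny neurons had a median ratio to the input of 0.154 and the 8 astrocyte markers one of 0.185. The labels place each group on a lane of its own, and lane cannot be told apart from group. CPM values are not corrected for transcript length, so they are compared between libraries and not between genes.

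The Bdnf row (chromosome 2, 109674700 to 109727043, mm10) adds up reads of transcripts from several start sites, and the files do not separate them. RefSeq (GRCm38.p6) gave 7 promoter windows for Bdnf, 2 for Ntf3 and 1 each for Ntrk2 and Ngfr, each from 250 bases before to 50 after a start. Ntrk3 and Sort1 had no entry. The core of the cAMP response element, the site of the activity-regulated factor CREB, was searched as TGACG on either strand (CGTCA on the other). Among the members' windows only 1 held it, that of the Bdnf start at 109692436, where CGTCA began 35 bases before the start. Of 32851 windows of all genes 20.8% held the core, and 1.79% held the full palindrome TGACGTCA, which occurred in 0 of the members' windows. The 250 bases before this start are shown because the other 6 Bdnf starts differ from it in this respect, with the core in capitals. A match is a description of the letters and not a site in use.
Bdnf, chr2:109692186-109692435, plus strand: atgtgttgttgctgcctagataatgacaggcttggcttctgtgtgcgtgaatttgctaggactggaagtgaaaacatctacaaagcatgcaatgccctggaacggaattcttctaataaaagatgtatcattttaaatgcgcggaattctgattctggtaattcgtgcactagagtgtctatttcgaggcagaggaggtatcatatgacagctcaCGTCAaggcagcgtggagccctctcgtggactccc

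Bdnf RNA was scarce, and of the 5 members with enough counts to test it varied most between libraries. Saline 1, 2 and 3 had 6, 9 and 33 Bdnf counts, cocaine 1, 2 and 3 had 31, 14 and 50, and yoked 1, 2 and 3 had 82, 9 and 223. The corresponding levels were 0.211, 0.718 and 1.41 CPM for saline, 0.943, 0.419 and 1.55 CPM for cocaine, and 2.12, 0.207 and 4.93 CPM for yoked libraries, against 0.617 CPM in the input. The groups overlapped in every comparison, and the yoked group held both the lowest and the highest value of the 9. In each group the library numbered 3 was the highest. The coefficient of variation over the 9 pull-downs was 106%, where counting error alone gives 14.8%.

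**Figure D1:**
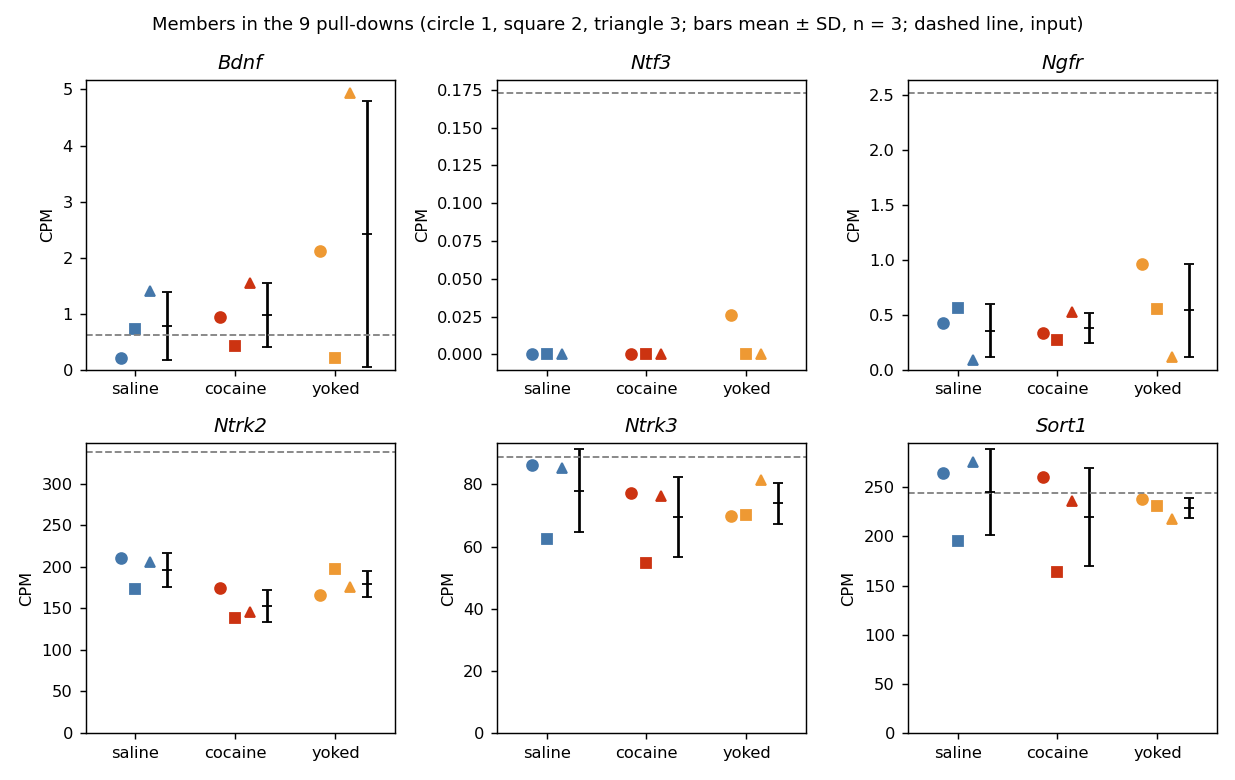
CPM of the 6 members (vertical axes, from 0 except for a small margin in the Ntf3 panel) in the 9 pull-downs by group; circles, squares and triangles are libraries numbered 1, 2 and 3, bars are the mean ± SD of 3 libraries (not drawn for Ntf3), and the dashed line is the input. Bdnf ran from 0.207 to 4.93 CPM with overlapping groups, and every pull-down lay below the input for Ntf3, Ngfr, Ntrk2 and Ntrk3 by library totals (Ntrk3 in 5 of 9 with TMM scaling).

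Mean Bdnf was 0.78 ± 0.602 CPM for saline, 0.972 ± 0.568 for cocaine and 2.42 ± 2.38 for yoked libraries (SD, n = 3 each). The order of these means was saline, cocaine, yoked, and neither pair of neighbours in it differed beyond its spread. The log2 fold change fitted by edgeR's quasi-likelihood test was 0.36 for cocaine against saline (95% interval -1.74 to 2.47, edgeR unadjusted p = 0.712), 1.68 for yoked against saline (-0.39 to 3.76, edgeR unadjusted p = 0.103) and -1.32 for cocaine against yoked (-3.31 to 0.67, edgeR unadjusted p = 0.173). The Benjamini-Hochberg adjusted p from edgeR was 0.999, 0.999 and 0.974 in this order. Without yoked 3 the value for yoked against saline was 0.57 and that for cocaine against yoked was -0.2. Leaving out any 1 library gave 0.57 to 2.61 for yoked against saline (highest without saline 3) and -1.87 to -0.2 for cocaine against yoked (lowest without cocaine 3). Cocaine against saline turned to -0.13 without saline 1 and to -0.19 without cocaine 3. All 3 intervals include 0, and a difference between groups was not detectable at this spread.

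The summed markers of cortical glutamatergic neurons were low and high in the same libraries as Bdnf at both ends of the range. The summed level of 8 markers of these cells (among them Slc17a7, Tbr1, Neurod6, Neurod2, Emx1, Fezf2 and Rorb) was 32.2, 89.2 and 84.2 CPM in saline 1, 2 and 3, 79.8, 84.1 and 109 CPM in cocaine, and 120, 38.6 and 125 CPM in yoked libraries. The input sum was 159 CPM, of which Rorb made up 123 CPM. The 2 libraries with the lowest sums, saline 1 and yoked 2, also had the lowest Bdnf, and the 2 with the highest, yoked 3 and yoked 1, the highest Bdnf. Between these ends the order differed, since saline 2, with a sum of 89.2 CPM, had 0.718 CPM of Bdnf and saline 3, with 84.2 CPM, had 1.41 CPM. Summed GABAergic interneuron markers were also lowest in saline 1 (43.7 CPM) and yoked 2 (57.6 CPM), but highest in cocaine 3 (117 CPM). This sum of 7 markers rests largely on Cck, which averaged 48.1 CPM over the pull-downs, against 13 CPM for Sst, the next highest. Cck had a mean ratio of 1.82 to the input, whereas 5 of the 7 markers lay below the input. The sum therefore does not show whether the other interneuron markers shared the low end. Summed astrocyte markers were highest in yoked 2 (1110 CPM). In each group they were lowest in the library numbered 3, at 222, 225 and 236 CPM in saline, cocaine and yoked. Of the 8 cortical markers, all had counts in each pull-down except Emx1, at 0 in saline 2. Slc17a7, the vesicular glutamate transporter of cortical neurons, was at 9.5, 31 and 31.5 CPM in saline, 26.7, 33.8 and 51.8 CPM in cocaine, and 49.1, 9.16 and 52.4 CPM in yoked libraries. The part of cortical or other cells in the Bdnf values was not tested. Fewer cells of a type, less RNA per cell and a smaller share of RNA from untagged cells cannot be told apart in these pull-downs.

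**Figure D2:**
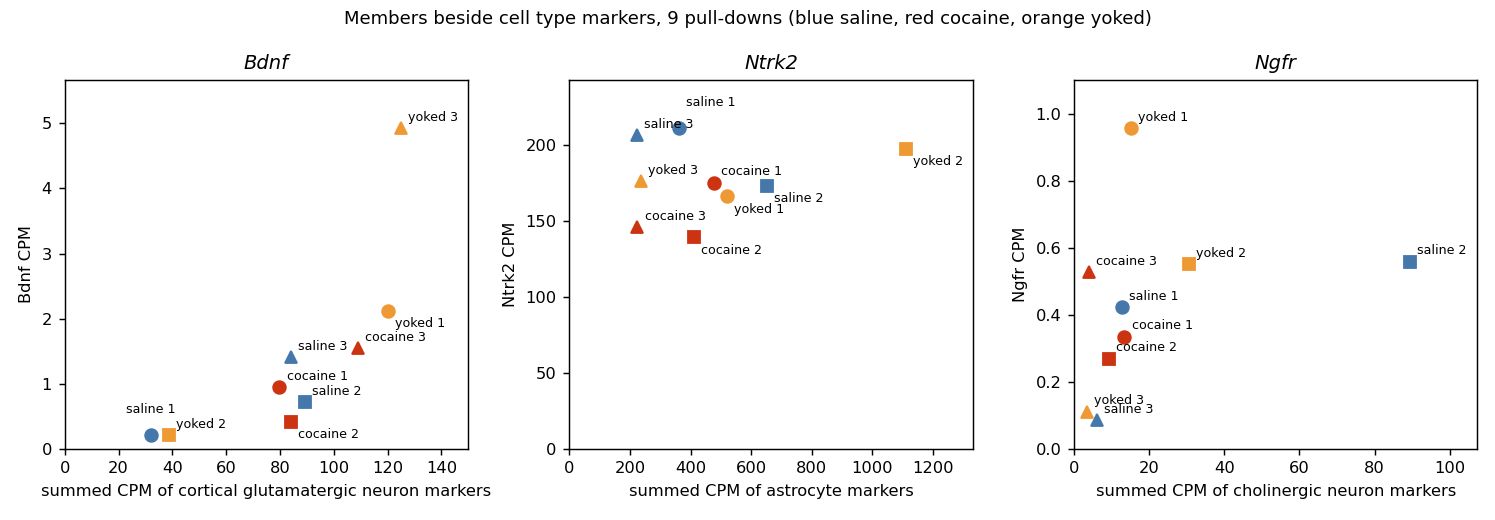
CPM of Bdnf, Ntrk2 and Ngfr (vertical axes) against, in this order, the summed CPM of cortical glutamatergic, astrocyte and cholinergic neuron markers (horizontal axes), 1 point for each of the 9 pull-downs. Bdnf was lowest in saline 1 and yoked 2, at marker sums of 32.2 and 38.6 CPM, and highest in yoked 3, at 125 CPM, whereas the highest astrocyte sum (1110 CPM, yoked 2) came with 197 CPM of Ntrk2, inside the range of the other libraries.

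By likeness over the 9 pull-downs, the 3 genes closest to Bdnf among 11054 genes were Nr2f2, which encodes the transcription factor COUP-TFII, with a Pearson r of 0.965 on log2 CPM, the glucuronyltransferase gene B3gat2 (0.945) and Neurod6, a transcription factor gene of cortical pyramidal neurons and one of the markers above (0.943). Neurod6 stood at 21.1 CPM in yoked 3 and 2.41 CPM in yoked 2. These coefficients are the highest of many and share the libraries' depth and composition, so they describe the pattern only.

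Ntf3 (chromosome 6, 126101412 to 126166772) was all but undetected in the pull-downs. It had 1 count in yoked 1 and 0 in each of the other 8, against 7 counts (0.173 CPM) in the input. By the floor of 3 counts, a count of 0 allows up to 0.239 CPM in saline 2, the shallowest library, and 0.0663 CPM in yoked 3, the deepest. Pooled over the 9 pull-downs, the Ntf3 rate was 0.0199 of the input rate (95% exact interval 0.000443 to 0.155, counting error only). Ntf3 did not pass the filter on low counts, so it was the only member without a test between groups.

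Ntrk2 (chromosome 13, 58806472 to 59133970) was robustly measured, with 2173 to 8596 counts in the pull-downs. It stood at 211, 173 and 206 CPM in saline 1, 2 and 3, at 175, 139 and 146 CPM in cocaine 1, 2 and 3, and at 166, 197 and 176 CPM in yoked 1, 2 and 3. All 3 cocaine libraries lay below saline 1 and saline 3, but cocaine 1 was above saline 2, so the groups overlapped. Mean levels were 197 ± 20.4 CPM in saline, 180 ± 15.9 in yoked and 154 ± 18.9 in cocaine libraries (SD, n = 3 each), and neighbours in this order overlapped.

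The log2 fold change of Ntrk2 for cocaine against saline was -0.31 ± 0.14 (SE; 0.808-fold, 95% interval -0.6 to -0.01). Its unadjusted p = 0.0409 by edgeR's quasi-likelihood test did not pass the adjustment over 14680 genes (Benjamini-Hochberg adjusted p = 0.999). For cocaine against yoked it was -0.22 (-0.51 to 0.07, edgeR unadjusted p = 0.13) and for yoked against saline -0.09 (-0.38 to 0.2, edgeR unadjusted p = 0.525). The value for cocaine against saline lay between -0.4 and -0.24 under the 16 alternatives tried, with adjusted p from 0.741 to 1. Ntrk2 spans 327499 bases, and the 10% of genes with the longest span had a median log2 fold change of -0.11 in the same comparison. The part of gene span in the Ntrk2 value was not tested.

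TrkB is made as a full-length kinase, mainly in neurons, and as truncated forms, which are abundant in astrocytes, and gene counts do not tell them apart. The summed astrocyte markers were at 222 to 652 CPM in saline, 225 to 478 in cocaine and 236 to 1110 in yoked libraries, against 2580 CPM in the input, with all 8 markers detected in every pull-down. The part of these cells in the Ntrk2 values was not tested. The genes closest to Ntrk2 by pattern were Lrrc7, which encodes the postsynaptic protein densin (r = 0.968), Rprd2 (0.958) and the autophagy receptor gene Nbr1 (0.939).

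Ntrk3 (chromosome 7, 78179986 to 78581034) showed a narrow range of levels. It was at 86.2, 62.5 and 85.4 CPM in saline 1, 2 and 3, at 77.4, 54.6 and 76.3 CPM in cocaine, and at 69.9, 70.3 and 81.6 CPM in yoked libraries. The lowest values were those of cocaine 2 and saline 2. Means were 78 ± 13.5, 69.4 ± 12.9 and 73.9 ± 6.66 CPM in saline, cocaine and yoked libraries (SD, n = 3 each), and neighbours in this order did not differ beyond their spread. The log2 fold change was -0.12 for cocaine against saline (95% interval -0.49 to 0.26), -0.08 for cocaine against yoked (-0.46 to 0.29) and -0.04 for yoked against saline (-0.41 to 0.34). Ntrk3 spans 401049 bases and, like Ntrk2, is among the 10% of genes with the longest span. Their median in cocaine against saline was -0.11, and the part of gene span was not tested. The closest genes were the axon guidance receptor gene Robo2 (r = 0.985), Ankle2 (0.979) and Reln, which encodes the secreted protein reelin (0.974).

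Ngfr (chromosome 11, 95568818 to 95587698) was close to the detection floor. It had 12, 7 and 2 counts in saline 1, 2 and 3, 11, 9 and 17 in cocaine, and 37, 24 and 5 in yoked libraries, against 102 in the input. Levels ran from 0.0855 CPM in saline 3 to 0.958 CPM in yoked 1 and the groups overlapped. The log2 fold change was 0.21 for cocaine against saline (95% interval -1.6 to 2.03), -0.47 for cocaine against yoked (-2.16 to 1.23) and 0.68 for yoked against saline (-1.1 to 2.46).

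p75NTR is known from cholinergic neurons of the basal forebrain, and the striatum holds cholinergic interneurons. Of 6 markers of these cells Gbx2 was at 0 in every pull-down, and the summed level was 12.7, 89.5 and 6.11 CPM in saline 1, 2 and 3, 13.4, 9.24 and 3.92 CPM in cocaine, and 15.2, 30.6 and 3.43 CPM in yoked libraries, against 69 CPM in the input. Saline 2, with the highest sum, had 0.559 CPM of Ngfr, and yoked 1, with the highest Ngfr, had a sum of 15.2 CPM. Among the genes closest to Ngfr in pattern were Tubg1 (r = 0.947) and the endothelial receptor gene Acvrl1 (0.941), on few counts of Ngfr.

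Sort1 (chromosome 3, 108283974 to 108361519) was well measured and close to the input level. It stood at 264, 195 and 276 CPM in saline 1, 2 and 3, at 260, 164 and 236 CPM in cocaine, and at 238, 231 and 218 CPM in yoked libraries, against 244 CPM in the input. As with Ntrk2 and Ntrk3, cocaine 2 was the lowest of the 9, and for Ntrk3 and Sort1 saline 2 was the next. Mean Sort1 was 245 ± 43.4 CPM for saline, 220 ± 49.9 for cocaine and 229 ± 9.7 for yoked libraries (SD, n = 3 each). The log2 fold change was -0.1 (95% interval -0.48 to 0.27), -0.04 (-0.42 to 0.33) and -0.06 (-0.44 to 0.32) in this order for cocaine against saline, for cocaine against yoked, and for yoked relative to saline. Its closest genes were the potassium channel subunit gene Dpp6 (r = 0.979), Atrn (0.966) and the protease gene Bace1 (0.963).

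Of the 5 members tested, 0 were called in any comparison at an adjusted p under 0.05 by edgeR, and the share called over all 14680 genes was 0% in each of the 3. DESeq2 and limma-voom also called 0 members. At an unadjusted p under 0.05 there was 1 member, Ntrk2, in cocaine against saline, where 2.84% of all genes reached this, and 0 in cocaine against yoked (2.58%) and in yoked against saline (1.84%). Adjusted p-values of the members ran from 0.974 to 0.999. Groups that did not overlap were seen for 0 of 5 members in each comparison. Over all genes this share was 11.1% for cocaine against saline (3.76% higher and 7.31% lower), 6.47% for cocaine against yoked (2.87% higher and 3.6% lower) and 6.9% for yoked against saline (2.48% higher and 4.42% lower). The comparisons share libraries in pairs and are not independent.

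**Figure D3:**
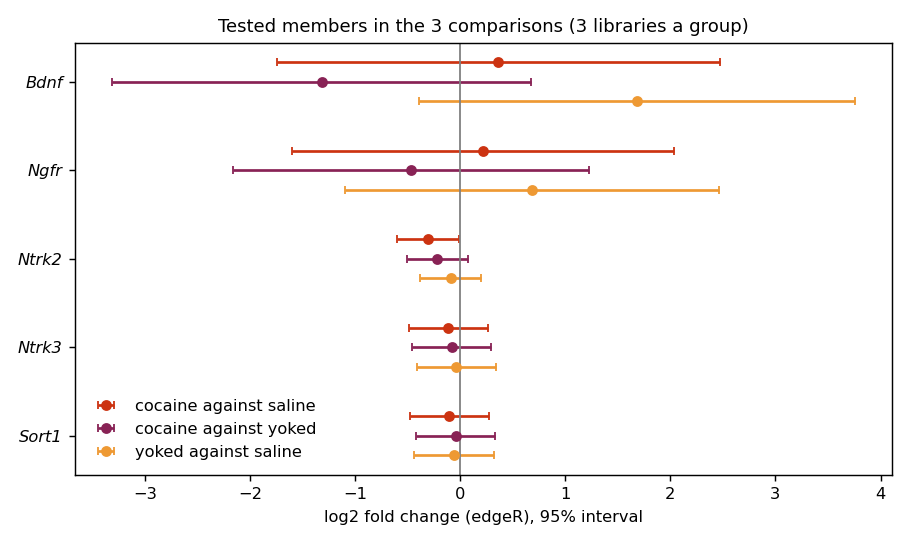
Log2 fold change of the 5 tested members (horizontal axis) with its 95% interval from edgeR in the 3 comparisons, 3 libraries a group. Intervals of Ntrk2, Ntrk3 and Sort1 stay within -0.6 to 0.34, while those of Bdnf and Ngfr reach from -3.31 to 3.76.

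The comparison of the pull-downs with the input asked whether each RNA was richer in ribosomes of the tagged cells than in the whole tissue. The input was 1 library, so ratios have no replicate check on that side. Ratios were formed in each pull-down with 0.5 CPM added to both values, and are given as the mean on the log scale turned back to a ratio. Over 17171 genes the median ratio was 0.864.

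Ngfr and Ntrk2 RNA lay below the input in every pull-down, and Bdnf RNA above it in most. The ratio was 0.295 for Ngfr (range 0.194 to 0.483), 0.518 for Ntrk2 (0.412 to 0.622) and 0.822 for Ntrk3 (0.616 to 0.969), each below the input in 9 of 9 pull-downs by library totals, as were 41.3% of all genes. With TMM scaling of all 10 libraries Ngfr and Ntrk2 stayed below in 9 of 9, but Ntrk3 in 5 of 9, with a mean log2 ratio of -0.08 in place of -0.28, and the median over all genes was 0.977. Among the 5 members other than Ntf3, Ngfr alone was at least 2-fold off the input in all 9, where 11.6% of genes were that much lower and 2.79% that much higher. With TMM scaling the highest Ngfr value was -0.89 on the log2 scale, short of the limit of -1, so the count of such members fell to 0. Ntf3 could not reach this limit, since with 0.5 CPM added a count of 0 gives a ratio of 0.743, while its pooled counts gave the ratio of 0.0199 above. Because 0.5 CPM is also large beside the levels of Ngfr, the ratio of pooled counts is also given, at 0.17 for Ngfr (95% exact interval 0.13 to 0.223, counting error only).

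Bdnf was above the input in 6 of 9 pull-downs, with a ratio of 1.37 (range 0.633 to 4.86). Bdnf was at 0.617 CPM in the input, so the added 0.5 CPM narrows this range. Its pooled counts gave a ratio of 2.55 (1.71 to 3.99, counting error only), to which yoked 3 contributed 223 of 457 counts, and without yoked 3 the mean log2 ratio moved from 0.45 to 0.22. For comparison, the 8 cortical glutamatergic markers had a median ratio of 1.75, with 3 of 8 below the input, and the 7 D1 neuron markers one of 2.27. The summed level of the 8 cortical markers was nevertheless higher in the input (159 CPM) than in any pull-down (32.2 to 125 CPM). Rorb, at 123 CPM in the input, had a ratio of 0.0572. Sort1 was at 0.938 of the input (range 0.674 to 1.13), above it in 3 pull-downs by library totals and in 7 after TMM scaling, under which its mean log2 ratio turned from -0.09 to 0.11.

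**Figure D4:**
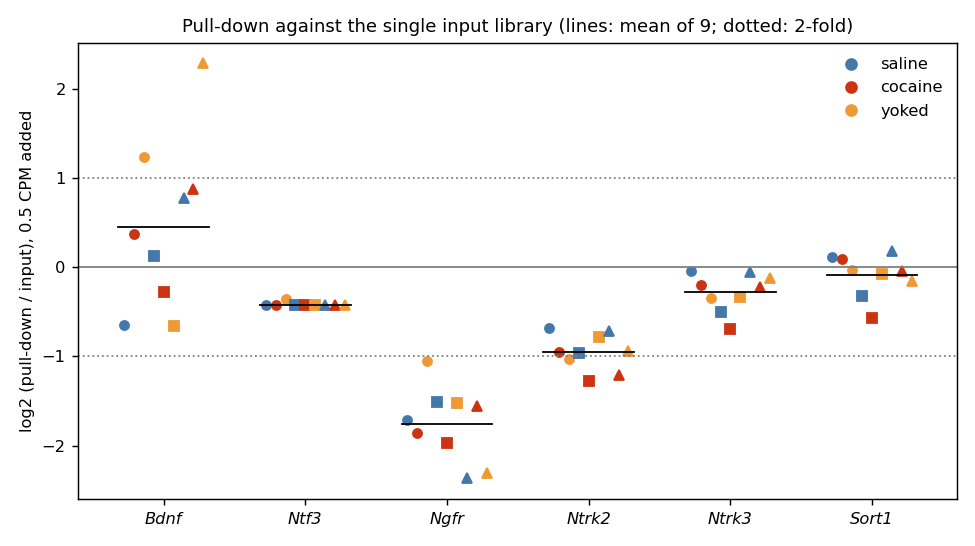
Log2 ratio of each pull-down to the input (vertical axis, 0.5 CPM added to both) for the 6 members, 1 point a library, with the mean of 9 as a line and 2-fold as dotted lines. Ngfr lies below the lower dotted line in all 9 libraries, Ntrk2 lies around it and Bdnf spreads from 0.633 to 4.86 times the input. The added 0.5 CPM narrows the Bdnf range, which was 0.207 to 4.93 CPM against 0.617 CPM in the input.

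Ntf5, the gene of the ligand neurotrophin-4, was all but undetected, with 2 counts in cocaine 3 and 0 in the other pull-downs and the input.

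Of the 4 other members of the sortilin family, 0 were called in any comparison. In cocaine against saline their median log2 fold change was -0.25 and 0 of 4 were above 0, beside a median of 0.0036 over all genes. Sorcs3 was at 9.55 ± 0.592 CPM in cocaine, 13.1 ± 3.05 in saline and 13.9 ± 2.17 in yoked libraries (SD, n = 3 each), with cocaine below both other groups in every library, as were 7.31% of all genes against saline and 3.6% against yoked. Its log2 fold change was -0.41 ± 0.21 (SE) against saline (edgeR unadjusted p = 0.0722) and -0.53 ± 0.21 against yoked (unadjusted p = 0.0241), which did not pass (Benjamini-Hochberg adjusted p = 0.999 and 0.974). The 2 comparisons share the cocaine libraries. Log2 fold changes against saline were -0.25 for Sorl1, -0.18 for Sorcs1 and -0.25 for Sorcs2.

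Genes that cut precursors or act beside p75NTR showed no call either. Among proneurotrophin processing genes 9 of 12 were tested, with a median log2 fold change of -0.02 in cocaine against saline. Furin, a protease that cleaves pro-BDNF inside cells, averaged 5.39 ± 0.712 CPM under cocaine and 7.23 ± 1.35 CPM under saline (SD, n = 3 each), or -0.36 on the log2 scale (95% interval -0.86 to 0.13). Plat, the tissue plasminogen activator gene, averaged 7.25 ± 0.874 CPM in yoked and 5.55 ± 0.258 CPM in saline libraries (SD, n = 3 each), 0.43 on the log2 scale (edgeR unadjusted p = 0.0742). Of 14 p75NTR partners tested, 9 had values above 0 in cocaine against saline, with a median of 0.05. Lingo1, a co-receptor of p75NTR, was at 1.52 times the input and had log2 fold changes of 0.16 for cocaine against saline and 0.36 for cocaine against yoked (edgeR unadjusted p = 0.0508). Maged1, an intracellular binding partner, was at 2.01 times the input, with log2 fold changes of 0.05 against saline and 0.05 for yoked against saline.

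Genes of intracellular Trk signalling followed. All 32 adaptors and regulators and all 25 downstream kinases and CREB genes were tested, and 0 were called in any comparison. In cocaine against saline 11 of 32 and 8 of 25 had values above 0, with medians of -0.12 and -0.06. Kidins220, a scaffold substrate of Trk receptors, was at 232 ± 52.6 CPM with cocaine, 277 ± 28.5 with saline and 256 ± 5.74 in yoked libraries (SD, n = 3 each). Log2 fold changes for cocaine against saline were -0.19 for the neuronal adaptor gene Shc3, -0.14 for the adaptor gene Frs2, -0.22 for Plcg1, the phospholipase activated by TrkB, and -0.12 for Slitrk5, a TrkB co-receptor. It was -0.21 for the receptor phosphatase gene Ptprs. Shc3 and Frs2 were lower in all 3 cocaine than in all 3 saline libraries, as were 7.31% of all genes, and for Frs2 the gap was narrow, at 98.8 CPM in cocaine 1 and 98.9 CPM in saline 1. Counting both directions, these groups did not overlap for 6 of the 32 adaptors and regulators and 4 of the 25 downstream genes. The share over all genes was 11.1%.

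Regulators of Bdnf transcription and genes that respond to BDNF and activity completed the lists. Of 15 regulators 0 were called, with a median log2 fold change of -0.03 in cocaine against saline, and a value of -0.15 for Creb1. Of 18 responsive genes 0 were called and 11 had values above 0, with a median of 0.1. Arc, an immediate early gene of dendrites, was at 51.7, 67.9 and 68.2 CPM in cocaine 1, 2 and 3 and at 51.2, 43.5 and 47.6 CPM in saline libraries, apart by a narrow margin, as were the groups of 3.76% of all genes in this direction. Its log2 fold change was 0.46 (95% interval -0.48 to 1.4). Counting both directions, the cocaine and saline groups did not overlap for 5 of the 18 responsive genes, beside 11.1% of all genes. Yoked 2, with the lowest Bdnf, had the highest Arc (107 CPM) and Egr1 (1090 CPM), and yoked 3, with the highest Bdnf, had the lowest, at 28 CPM of Arc and 459 CPM of Egr1. Saline 1, with Bdnf almost as low (0.211 CPM), had 51.2 CPM of Arc, inside the range of the other libraries. Yoked 2 also had the highest summed astrocyte (1110 CPM) and D2 neuron (493 CPM) markers, against 236 and 205 CPM in yoked 3. A relation between these values was not tested. Vgf, a BDNF-responsive neuropeptide gene, had a log2 fold change of -0.07 for cocaine against saline.

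**Figure D5:**
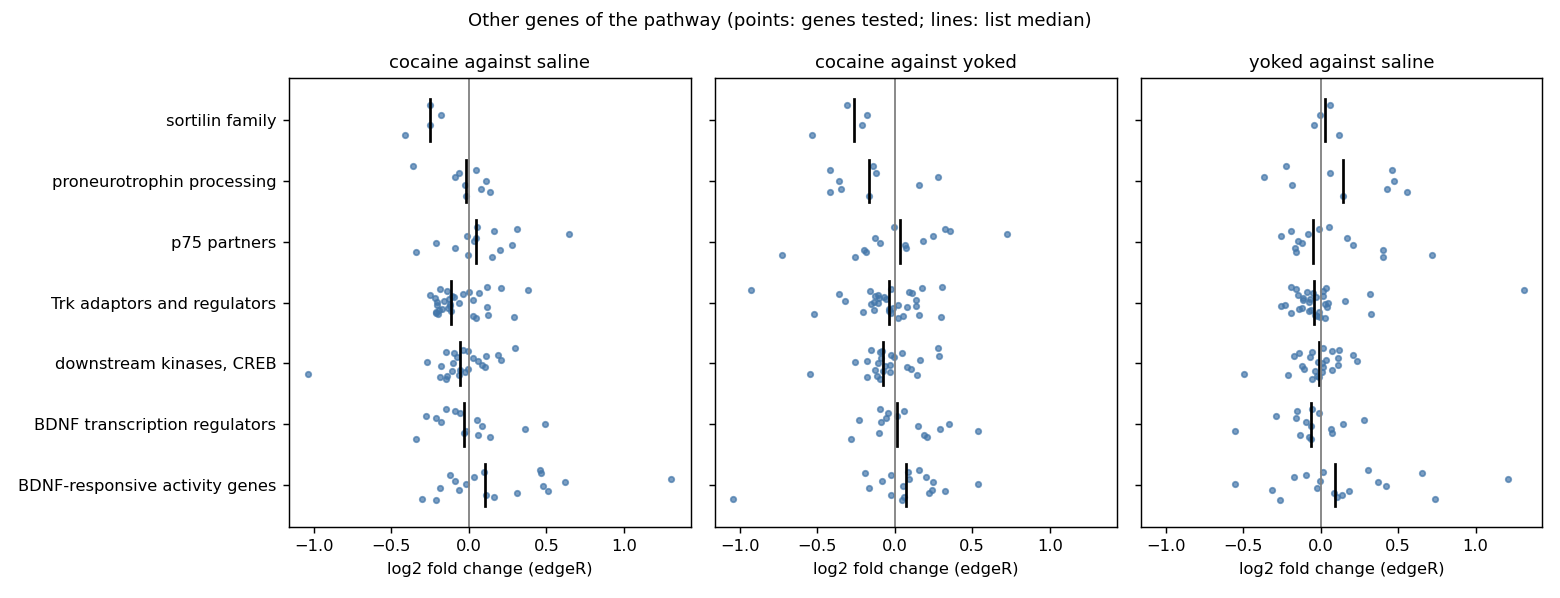
Log2 fold changes (horizontal axes) of the tested genes of 7 of the other lists in the 3 comparisons, 1 point a gene, with list medians as lines. The list of other neurotrophin ligands and receptors, with 1 gene tested, is not drawn. Medians of the lists drawn lie between -0.26 and 0.15, and 0 genes were called.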

How the data were processed

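Ribosome-bound RNA was sequenced in 9 pull-downs and total RNA in 1 input. The authors deposited raw counts of reads for each gene symbol. STAR 2.0.0e, HTSeq and the mm10 build are named in the submitters' processing notes. For the annotation, the strand setting and the version of HTSeq, a value is not given in the sources used here, so overlapping genes cannot be told apart. RefSeq placed a lncRNA gene inside both Ntrk2 and Ntrk3. From each file 6 rows naming no gene were left out. They held 12.3% to 16.1% of unique reads as no feature and 2.54% to 3.03% as ambiguous in the pull-downs, and 27.6% and 6.63% in the input.

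Groups were compared with edgeR 4.0.16 in R 4.3.3 (limma 3.58.1; TMM, filterByExpr, robust quasi-likelihood F test) on all 9 pull-downs, with group as the only term and Benjamini-Hochberg adjustment over 14680 genes. The biological coefficient of variation common to all genes came to 23.7%. Errors of log2 fold changes are the log2 fold change over the root of F, and intervals use the fitted degrees of freedom. The code was tested on simulated data. Alternatives were DESeq2 1.42.0, limma-voom, RLE size factors, no filter, 2 groups only, a replicate block, leaving out Rn45s (10.5% to 20.5% of counts) and each library in turn. Ratios to the input used genes that passed the filter or had at least 10 input counts. No replicate pair looked like 1 library deposited again, with chi-square values of 14.6 to 171 for each degree of freedom. The members and lists were chosen with earlier results of these data known. All 6 members were named in every comparison, with pathway genes from a fixed set and the 3 genes of highest Pearson r on log2 CPM (prior count 2) among genes averaging 50 counts or more, without predicted, clone and small RNA symbols. Intervals of counts are exact at 95%. Some genes of these lists and rules are not reported here.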

Additional observations from a re-analysis of the deposited data

Results flagged for a closer look

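Bdnf in yoked 3, at 4.93 CPM, lay far above the other 8 pull-downs, of which the next was yoked 1 at 2.12 CPM. The gap to the next value was 0.594 of the range over the 9 pull-downs, above Dixon's critical value of 0.493. For normally distributed values, chance gives such a gap in about 1 of 20 groups, and 5 members were examined over 9 pull-downs that belong to 3 groups. The gap was taken on CPM, and a normal distribution of Bdnf was not checked. As log2 ratios to the input, yoked 3 was at 2.28, yoked 1 at 1.23 and yoked 2, the lowest, at -0.66. Dixon's test was not run on that scale.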

How the results depend on the processing

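Over the 16 alternatives of each comparison between groups, the number of members called stayed at 0. Leaving out each library in turn moved the log2 fold changes for cocaine against saline over -0.19 to 1.29 for Bdnf, -0.26 to 0.03 for Ntrk3 (above 0 without cocaine 2), -0.26 to 0.61 for Ngfr (below 0 without saline 3 or cocaine 3) and -0.25 to 0.07 for Sort1 (above 0 without cocaine 2 or saline 3). For cocaine against yoked they ran over -0.19 to 0.06 for Ntrk3 (above 0 without cocaine 2 or yoked 3), -0.94 to 0.21 for Ngfr (above 0 without yoked 1) and -0.15 to 0.13 for Sort1 (above 0 without cocaine 2). For yoked against saline they ran over -0.18 to 0.07 for Ntrk3 (above 0 without saline 1, saline 3 or yoked 1), -0.003 to 1.16 for Ngfr (below 0 without yoked 1) and -0.2 to 0.07 for Sort1 (above 0 without saline 3). The cause was not tested. Members at least 2-fold off the input in every pull-down numbered 0 with TMM scaling and 0 with a pseudocount of 2 CPM, against 1, and 1 whichever library was left out. The median log2 ratio of all genes to the input moved from -0.21 to -0.03 with TMM scaling, and that of Sort1 turned to 0.11.

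With the replicate number as a block, 0 members were called in each comparison, and 1 gene in place of 0 over all genes. Ntrk2 was at -0.3 and Bdnf at 0.48 for cocaine against saline, Bdnf at -0.94 for cocaine against yoked and at 1.42 for yoked against saline. Deviations of same-numbered libraries correlated at 0.231 to 0.246 for number 3 and 0.129 to 0.227 for number 2, but -0.017 to 0.053 for number 1. Libraries numbered 2 correlated at -0.254 to -0.142 with those numbered 3 in other groups. Deviations were taken from each group's mean and cancel out within a group, so these negative values are not separate evidence. By the same-number values alone, those numbered 2 and 3 shared deviations by number. Those numbered 1 did not, and cocaine 1 did not correlate best with its own number. The main fit therefore took no pairing from the numbers, and the block is given as an alternative. Over all genes DESeq2 called 1 gene in cocaine against saline, as did the fit of these 2 groups alone and that without yoked 3, which also gave 1 in yoked against saline. Low counts limit Bdnf, Ngfr and Ntf3.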
